A study of Mus musculus with 2 samples.

Results

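The XCL1-XCR1 and FLT3 dendritic cell axis was described by 7 genes, named as a list of symbols and taken from 32285 features: Xcl1, Xcr1, Flt3, Flt3l, Clec9a, Batf3 and Irf8. All 7 were among the features of both libraries, and none was used to assign a cell to a type. The samples were subcutaneous J558 allografts grown in female BALB/c mice. J558 is a mouse plasmacytoma line, a tumour of antibody-secreting B-lineage cells. The treated group was given TAK-931, an oral inhibitor of the replication kinase CDC7, at 60 mg/kg once daily, and the control group the 0.5% methylcellulose vehicle alone, and tumours were taken at day 6. From each group 1 tumour was dissociated and made into 1 droplet 3′ single-cell RNA library, so no difference between the libraries has a replicate check. All intervals are exact 95% intervals that cover counting error only.

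XCL1 is a chemokine that natural killer (NK) cells and activated CD8 T cells release, and XCR1 is its receptor on conventional type 1 dendritic cells (cDC1), the dendritic cells specialised in cross-presenting antigen from dead cells to CD8 T cells. FLT3 ligand, encoded by Flt3l and made by lymphocytes and stromal cells, keeps dendritic cells in number through the receptor kinase FLT3. CLEC9A is a receptor by which cDC1 sense actin exposed on dead cells, and BATF3 and IRF8 are transcription factors that cDC1 need to develop. IRF8 also acts in monocytes, plasmacytoid dendritic cells (pDC) and lymphocytes, and its gene is induced by interferon-γ.

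Transcripts were counted by their molecular tags (UMIs), and a level is the gene's share of all UMIs summed over the cells of a type in a library, given as CPM, counts scaled to a library total of 1e6. A 3′ library is not scaled by gene length, so levels were compared between cell types and libraries and not between genes. The vehicle library held 4565 barcodes and the TAK-931 library 6558, of which 3441 and 3488 were kept at over 2000 genes and under 15% mitochondrial UMIs, with a median of 40504 and 15097 UMIs per kept cell. The libraries shared 8 barcodes, 1 of them kept in both. Cells were typed by gates on marker genes. Of kept cells, 2980 in the vehicle library and 102 in the TAK-931 library passed the J558 tumour gate, and 264 and 2806 passed an immune gate. The receivers were few: 7 and 22 cDC1, 13 and 32 conventional type 2 dendritic cells (cDC2), 4 and 6 mature dendritic cells and 7 and 49 pDC. The gates gave 10 and 77 NK cells and 12 and 647 T cells, of which 7 and 488 were CD8 T cells. A further 23 and 203 cells passed the gates of more than 1 lineage. Among genes not used in the gates, the lysosomal enzyme gene Ppt1, high in cDC1, was at 1284 and 816 CPM in cDC1 against 74.8 and 75.9 CPM in cDC2, and Gzma, a granzyme of NK cells, was at 7108 and 10474 CPM in NK cells against 0 and 130 CPM in T cells. Not every such gene followed the names. Ifi205, a further gene of cDC1, was at 72.7 CPM in cDC1 and 102 CPM in cDC2 of the vehicle library and at 95.1 and 55.2 CPM in the TAK-931 library. The granule gene Nkg7, which cytotoxic T cells share with NK cells, was at 1087 and 1145 CPM in NK cells and at 1592 and 1148 CPM in T cells.

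The positions below are on GRCm38 (mm10) in the GENCODE annotation. Xcl1 lies at chr1:164931644-164935527 on the minus strand, Batf3 at chr1:191097847-191108945 on the plus strand and Flt3 at chr5:147330741-147400489 on the minus strand. Clec9a lies at chr6:129408862-129424763 on the plus strand, Flt3l at chr7:45129788-45136432 on the minus strand, Irf8 at chr8:120736358-120756694 on the plus strand and Xcr1 at chr9:123852315-123862029 on the minus strand. All 7 are annotated as protein-coding. Their identifiers in the files are ENSMUSG00000026573 (Xcl1), ENSMUSG00000060509 (Xcr1), ENSMUSG00000042817 (Flt3), ENSMUSG00000110206 (Flt3l), ENSMUSG00000046080 (Clec9a), ENSMUSG00000026630 (Batf3) and ENSMUSG00000041515 (Irf8). The whole of Xcl1 is overlapped by Gm20743 on the opposite strand, 936 bases of Flt3 by the antisense gene Gm26597, and 474 and 594 bases of Clec9a by Clec1b and Gm43914 on the same strand. On the same strand Gm20388 overlaps 20337 bases of Irf8 and Gm45713 overlaps 6444 bases of Flt3l, and neither is analysed here. The strand setting of the counting is not given in the sources used here, so reads shared with these neighbours are uncertain. RefSeq held a promoter window for all 7 (GRCm38.p6). The 250 bases before the start site are shown for Irf8, the member with the largest ratio over all cells, for Flt3l, the ligand gene with a motif match, and for Xcr1 and Clec9a, the pair of cDC1 receptors that were found in the same cells. Capitals mark matches to the motifs given after them.
Irf8, chr8:120736108-120736357, plus strand: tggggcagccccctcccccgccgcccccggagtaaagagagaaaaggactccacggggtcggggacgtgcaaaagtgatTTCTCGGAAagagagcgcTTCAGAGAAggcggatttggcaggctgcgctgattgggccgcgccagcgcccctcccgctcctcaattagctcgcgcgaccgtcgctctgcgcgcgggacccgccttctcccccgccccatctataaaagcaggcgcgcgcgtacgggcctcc
Flt3l, chr7:45136433-45136682, minus strand: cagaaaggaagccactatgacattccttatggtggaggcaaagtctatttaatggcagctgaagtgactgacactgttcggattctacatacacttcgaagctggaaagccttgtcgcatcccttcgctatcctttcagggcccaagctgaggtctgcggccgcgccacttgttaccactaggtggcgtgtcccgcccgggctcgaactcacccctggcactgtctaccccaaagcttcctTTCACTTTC
Xcr1, chr9:123862030-123862279, minus strand: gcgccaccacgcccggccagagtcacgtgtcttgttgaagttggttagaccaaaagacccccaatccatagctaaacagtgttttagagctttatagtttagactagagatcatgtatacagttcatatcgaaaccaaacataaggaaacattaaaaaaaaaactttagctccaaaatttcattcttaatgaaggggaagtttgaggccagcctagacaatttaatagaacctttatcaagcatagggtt
Clec9a, chr6:129408612-129408861, plus strand: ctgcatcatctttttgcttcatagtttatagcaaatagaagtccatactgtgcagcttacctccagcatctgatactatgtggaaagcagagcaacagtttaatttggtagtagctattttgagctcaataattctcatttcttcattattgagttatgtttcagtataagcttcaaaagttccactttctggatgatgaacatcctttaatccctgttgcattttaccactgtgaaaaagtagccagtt
On both strands 4 motifs were searched: TTCNNNGAA, bound by STAT factors, TGANTCA, bound by AP-1 and BATF, GGAANNGAA, bound by ETS-IRF pairs, and GAAANNGAA, bound by IRF factors. The GGAANNGAA and GAAANNGAA motifs can match overlapping bases. The Irf8 window held 2 matches to TTCNNNGAA, starting 171 and 153 bases before the start site, and Batf3 held 1 starting 239 bases before. The Flt3l window held 1 match to GAAANNGAA, on the opposite strand, starting 9 bases before the start site. A second RefSeq start site of Irf8 and the windows of Xcl1, Xcr1, Flt3 and Clec9a held none of the 4. Among all 32851 windows, 7.02% held TTCNNNGAA, 6.75% TGANTCA, 6.99% GGAANNGAA and 7.13% GAAANNGAA. A match describes the letters and shows no binding.

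The ligand Xcl1 was highest in NK cells in both libraries. Over all kept cells it stood at 0.773 CPM (0.635 to 0.932, 12 cells with a UMI) in the vehicle library and 17.2 CPM (16.3 to 18.2, 135 cells) in the TAK-931 library, a log2 ratio of 4.48 (4.19 to 4.77). Such sums over all cells cannot tell more cells of a type from more RNA per cell, so each member is given by cell type. NK cells were at 798 CPM (653 to 966, 105 UMIs in 10 cells) in the vehicle library and at 326 CPM (294 to 361, 377 UMIs in 77 cells) in the TAK-931 library, a log2 ratio of -1.29 (-1.61 to -0.96). With barcodes of over 500 genes kept it was -0.89 (-1.17 to -0.60), less than 2-fold. Per NK cell, the lowest, median and highest level was 55.5, 616 and 2263 CPM in the vehicle library and 0, 0 and 4476 CPM in the TAK-931 library. Every vehicle NK cell lay above the TAK-931 median, while the highest TAK-931 cell lay above the highest vehicle cell, so the cells of the libraries overlapped. An Xcl1 UMI was found in 10 of 10 vehicle NK cells and in 35 of 77 TAK-931 NK cells (45.5%, 34.1 to 57.2%), at median depths of 10700 and 9933 UMIs. With each cell thinned to 4000 UMIs these became 7 of 10 (70.0%, 34.8 to 93.3%) and 22 of 77 (28.6%, 18.8 to 40.0%), and the intervals overlapped. In B-lineage J558 tumour cells, which should lack the gene, 1 of 2980 and 3 of 102 cells had a UMI at median depths of 42491 and 74890 UMIs. The Xcl1 UMIs sat in few cells: 12 TAK-931 NK cells with at least 10 UMIs held 310 of the 377, and 4 vehicle cells held 89 of the 105. Counting intervals leave out this spread between cells.

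**Figure D1:**
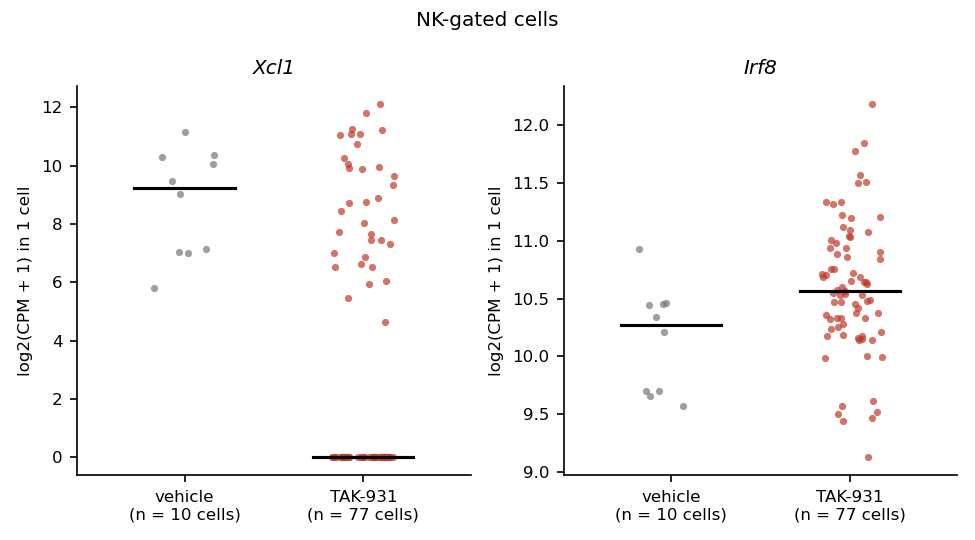
Level of Xcl1 and of Irf8 in each NK-gated cell, as log2(CPM + 1), in the vehicle library (10 cells) and the TAK-931 library (77 cells); points are cells and bars medians. All 10 vehicle cells hold Xcl1 UMIs, 35 of the 77 TAK-931 cells lie above 0, and Irf8 is above 0 in every cell.

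T cells carried less Xcl1 per cell but were many in the TAK-931 library. CD8 T cells stood at 39.9 CPM (36.0 to 44.2, 57 of 488 cells) there, and CD4 T cells at 5.55 CPM (all 9 UMIs in 1 of 100 cells). The 59 T cells assigned to neither stood higher, at 72.9 CPM (57.3 to 91.3), but 1 cell held 48 of their 75 UMIs. The 7 vehicle CD8 T cells held no Xcl1 UMI, which allows up to 29.2 CPM, and with under 10 cells no ratio is given. Over all T cells the levels were 15.1 CPM (3 UMIs in 1 of 12 cells) and 38.1 CPM, a log2 ratio of 1.33 with an interval from -0.22 to 3.62. NK cells held 96.3% of the vehicle library's 109 Xcl1 UMIs (90.9 to 99.0%). In the TAK-931 library with 1194 Xcl1 UMIs the share was 31.6% (28.9 to 34.3%) in NK cells and 38.4% (35.6 to 41.2%) in T cells. Another 24.5% lay in cells that passed more than 1 lineage, most of it in 1 cell with 227 Xcl1 UMIs. That cell had 68641 UMIs in all, held 19.0% of the library's Xcl1 and passed marker minimums of T, NK, cDC2, pDC and monocyte/macrophage lists. Monocyte/macrophage cells of the TAK-931 library had 29 Xcl1 UMIs, where free RNA estimated from foreign markers would give 35.02.

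The CD8 T cells with Xcl1 were set beside the others in 17 genes of T-cell state, 6 of naive, memory or progenitor cells and 11 of effector cells or checkpoints. Of the 6, 3 (Tcf7, Ccr7 and Slamf6) were found in a higher share of cells with Xcl1, and of the 11, 2 (Gzmb and Ccl5) in a lower share, with intervals apart in at least 25 of 50 thinning draws. Of all 8046 genes found in at least 10% of these cells, 0.174% were higher and 0.162% lower by the same rule. In the TAK-931 library 57 of 488 CD8 T cells had an Xcl1 UMI, at a median of 17819 UMIs against 14094 in the other 431. A UMI of Tcf7, a transcription factor of naive, memory and progenitor T cells, was found in 52.6% (39.0 to 66.0%) of them and in 14.2% of the others. Thinned to 4000 UMIs in 50 draws, the median shares were 39.3% and 7.99%, and the intervals were apart in 49 draws. Ccr7, the lymph-node homing receptor, was in 70.2% against 19.7% of cells unthinned and in a median of 58.5% against 10.95% thinned, apart in all 50 draws. Slamf6, a surface marker of progenitor-like T cells, was in 61.4% against 29.9% unthinned and 37.5% against 13.3% thinned, apart in 34 draws. The cytotoxic granule protease gene Gzmb went the other way, with 50.9% against 76.6% unthinned and 20.3% against 62.4% thinned, lower and apart in all 50 draws. Ccl5, a chemokine of effector cells, was at 68.7% against 92.3% thinned, lower and apart in 46 draws, and at 89.5% against 97.7% unthinned, with overlapping intervals. The intervals of the other 12 genes overlapped in most draws. They were apart, with the share lower in cells with Xcl1, in 20 draws for Havcr2, 18 for Prf1, 13 for Nkg7, 7 for Pdcd1, 6 for Lag3, 1 for Mki67 and 0 for Gzmk and Tox. With the share higher they were apart in 12 draws for Il7r, 5 for Cxcr3, 3 for Lef1 and 1 for Gzma. For the T-cell lineage genes Cd3e and Cd8a the intervals were apart in 4 and 0 draws. In 1 further thinning, the intervals of 9 more genes overlapped between CD8 T cells with and without Xcl1, namely Ccl3, Ccl4, Ifng, Tnf, Tnfrsf9, Nr4a1, Crtam, Flt3l and Cd69. Between NK cells with and without Xcl1 all 15 genes compared there overlapped. These genes were chosen after values of the data had been seen.

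**Figure D2:**
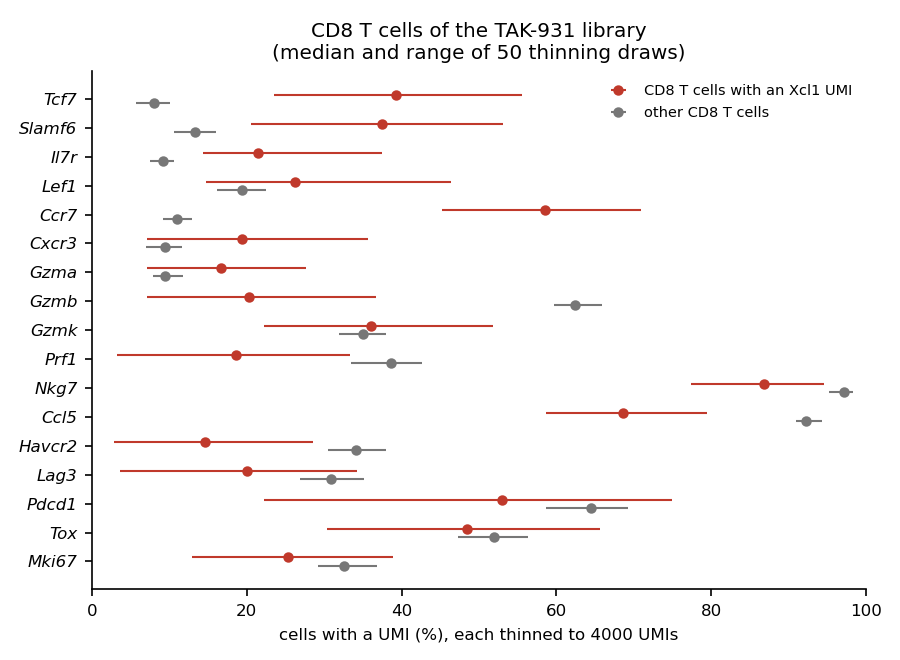
Percent of CD8 T cells of the TAK-931 library with a UMI of each gene after thinning to 4000 UMIs, for cells with and without an Xcl1 UMI in the same draw; points are medians and bars the range over 50 draws. Tcf7, Slamf6 and Ccr7 lie higher and Gzmb and Ccl5 lower in cells with Xcl1.

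Chemokine genes that NK and CD8 T cells release with XCL1 stood higher in TAK-931 NK cells, where Xcl1 stood lower among kept cells. The monocyte/macrophage genes Lyz2, Apoe and Fcer1g also stood higher in these NK cells, with values given below for Irf8, and their part was not tested. Of 8 list genes tested in NK cells, 4 were at least 2-fold higher in the TAK-931 library and 1 was at least 2-fold lower, where over all 7712 genes with at least 10 UMIs 29.8% were higher and 5.73% lower. For such counts a 0 in one library was taken as 0.5 counts. Taken as 3 counts, 3 of the 8 and 17.1% of all genes were higher. By that rule 3 of 6 list genes tested were higher in dendritic cells, beside 12.8% of all genes. In monocyte/macrophage cells 5 of 8 were higher, beside 8.03%. Ccl3, Ccl4 and Ccl5 were among them in both, so their higher levels were not particular to NK cells. In NK cells the chemokine gene Ccl3 stood at 45.6 and 190 CPM (log2 ratio 2.06, 0.91 to 3.52). Ccl4 stood at 296 and 1042 CPM (1.81, 1.35 to 2.31), and Ccl5 at 2083 and 10056 CPM (2.27, 2.10 to 2.45). Tnfrsf9, the costimulatory receptor 4-1BB, was at 319 and 427 CPM with a ratio interval from -0.04 to 0.91. Nr4a1, an early gene of antigen receptor signalling, was at 30.4 and 42.4 CPM with an interval from -0.97 to 2.41. The gene at least 2-fold lower was Crtam, with 6 and 17 UMIs, and Tnf, counted as higher, rested on 0 and 10 UMIs. In T cells 3 of the 8 were at least 2-fold higher (Ifng, Tnf and Crtam) and 1 lower (Nr4a1), where Tnf rested on 0 vehicle UMIs and Crtam on 1 with ratio intervals that reached below 0, beside 14.4% and 13.8% of 11651 genes. With a 0 taken as 3 counts Tnf was no longer counted, beside 8.15% and 9.12%. There the interferon-γ gene Ifng was at 20.2 and 77.4 CPM (1.94, 0.58 to 3.82), while Ccl4 was at 186 and 95.7 CPM (-0.96, -1.43 to -0.45). Ccl3 was at 70.5 and 39.4 CPM (-0.84, -1.60 to 0.04), Ccl5 at 3723 and 4413 CPM (0.25, 0.14 to 0.35) and Tnfrsf9 at 443 and 380 CPM (-0.22, -0.52 to 0.10). Of the members, Xcl1 counted as lower among 3 tested in NK cells, and Flt3l, on 0 and 10 UMIs, as higher with a 0 taken as 0.5 counts but not as 3 counts. Xcl1 and Irf8 counted as higher among 4 tested in T cells.

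Flt3l in the TAK-931 library was highest in T and NK cells. It stood at 13.98 CPM (11.7 to 16.6, 104 of 488 cells) in CD8 T cells, 12.3 CPM (7.53 to 19.0) in CD4 T cells and 8.66 CPM (4.15 to 15.9) in NK cells, and the intervals of these 3 overlapped. Monocyte/macrophage cells were at 2.64 CPM (2.11 to 3.26) and J558 tumour cells at 1.73 CPM (0.92 to 2.96), both below the CD8 and CD4 T intervals. Over all T cells the vehicle and TAK-931 levels were 15.1 CPM (3 UMIs) and 13.8 CPM, a log2 ratio of -0.13 with an interval from -1.70 to 2.16. The 10 vehicle NK cells had no Flt3l UMI, which allows up to 22.8 CPM, above the TAK-931 level, so no ratio is given. In J558 cells the level was 1.73 CPM in both libraries, with a ratio interval from -0.93 to 0.80. Over all kept cells Flt3l nevertheless stood at 1.82 and 5.01 CPM (log2 ratio 1.46, 1.23 to 1.70). Splitting that difference of 3.19 CPM by cell type, the changed mix of cell types went with 3.51 CPM of it and the changed levels within types with -0.32 CPM. T cells held 47.8% of the TAK-931 library's 347 Flt3l UMIs, and J558 cells 89.8% of the vehicle library's 256. Of the 77 TAK-931 NK cells, 35 had Xcl1, 7 had Flt3l and 3 had both.

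The receptor Xcr1 was highest in cDC1 in both libraries, although it was not one of their gate markers. In cDC1 it stood at 153 CPM (92.4 to 240, 5 of 7 cells) in the vehicle library and at 217 CPM (181 to 258, 20 of 22 cells) in the TAK-931 library. The 7 vehicle cDC1 held 1, 3, 0, 7, 0, 4 and 4 Xcr1 UMIs, and the 22 TAK-931 cDC1 between 0 and 24 with a median of 5, so the cells of the libraries overlapped. Median depths of cDC1 were 17249 and 25917 UMIs, and thinned to 4000 UMIs the shares with Xcr1 were 57.1% (18.4 to 90.1%) and 59.1% (36.4 to 79.3%). Mature dendritic cells held 4 Xcr1 UMIs in 4 vehicle cells, 76.9 CPM (20.9 to 197), which overlapped the vehicle cDC1 interval, and none in 6 TAK-931 cells. No pDC held Xcr1, which allows up to 61.7 and 5.59 CPM. In cDC2 there were 0 UMIs in 13 vehicle cells and 2 in 32 TAK-931 cells, at depths of 9672 and 14938 UMIs. Over all dendritic cells, that is cDC1, cDC2 and mature cells, Xcr1 was at 71.2 CPM (45.1 to 107) and 105 CPM (87.7 to 124), with a log2 ratio of 0.56 and an interval from -0.09 to 1.26. The ratio was -0.12 (-0.78 to 0.61) with 1 more marker required in every gate and -0.03 with cells typed by clusters, so its direction rests on the gates. Other alternatives gave intervals just above 0, with 0.73 (0.09 to 1.44) for barcodes of over 1000 genes, 0.73 (0.08 to 1.44) for over 500 genes, 0.66 (0.01 to 1.37) centred on the median gene and 0.78 (0.01 to 1.64) without the cell with the most Xcr1 UMIs in each sum. Over all kept cells it was at 0.291 and 3.46 CPM (3.57, 3.09 to 4.09). In TAK-931 monocyte/macrophage cells 47 of 1962 cells had 59 Xcr1 UMIs, 1.81 CPM (1.38 to 2.34), where the free RNA estimate was 5.83 UMIs. T cells of that library, which should lack the gene, were at 0.749 CPM (0.342 to 1.42).

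Clec9a followed Xcr1 in cDC1 and was also found in pDC and monocyte/macrophage cells. It stood at 137 CPM (80.0 to 220, 6 of 7 cells) in vehicle cDC1 and at 159 CPM (128 to 194, 19 of 22 cells) in TAK-931 cDC1. The vehicle cDC1 held 5, 1, 1, 1, 2, 7 and 0 Clec9a UMIs, in the same order of cells, and the TAK-931 cDC1 between 0 and 10 with a median of 4. Thinned shares were 42.9% (9.90 to 81.6%) and 54.5% (32.2 to 75.6%). In TAK-931 pDC, 12 of 49 cells held 17 Clec9a UMIs, 31.7 CPM (18.5 to 50.7), at a median depth of 10816 UMIs, and 11 of these 12 cells also held Flt3. T cells of that library were at 0.0832 CPM, below the pDC interval, and had a median depth of 14109 UMIs. The vehicle pDC held 1 Clec9a UMI in 7 cells, so the libraries cannot be compared there. Over dendritic cells the levels were 55.7 CPM (33.0 to 88.1) and 79.4 CPM (64.6 to 96.5), with a log2 ratio of 0.51 and an interval from -0.22 to 1.32. The ratio was 0.06 with 1 more marker required in every gate, 0.15 with cells typed by clusters and 1.05 (0.14 to 2.10) without the cell with the most Clec9a UMIs in each sum. In monocyte/macrophage cells of the TAK-931 library Clec9a stood at 2.89 CPM (2.33 to 3.53), a low level over 1962 cells. These 94 UMIs were 36.2% (30.3 to 42.3%) of the library's 260 Clec9a UMIs, beside 95 in cDC1, and the free RNA estimate was 6.59 UMIs. Clec9a over all kept cells was at 0.220 and 3.75 CPM (4.09, 3.55 to 4.68). Both Xcr1 and Clec9a were found in 7 vehicle cells, 4 of them cDC1, and in 27 TAK-931 cells, 18 of them cDC1. Of the 27, 3 were among the 1962 monocyte/macrophage cells, of which 76 had Clec9a and 47 had Xcr1. Whether 3 is more or fewer than for unrelated genes was not tested.

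**Figure D3:**
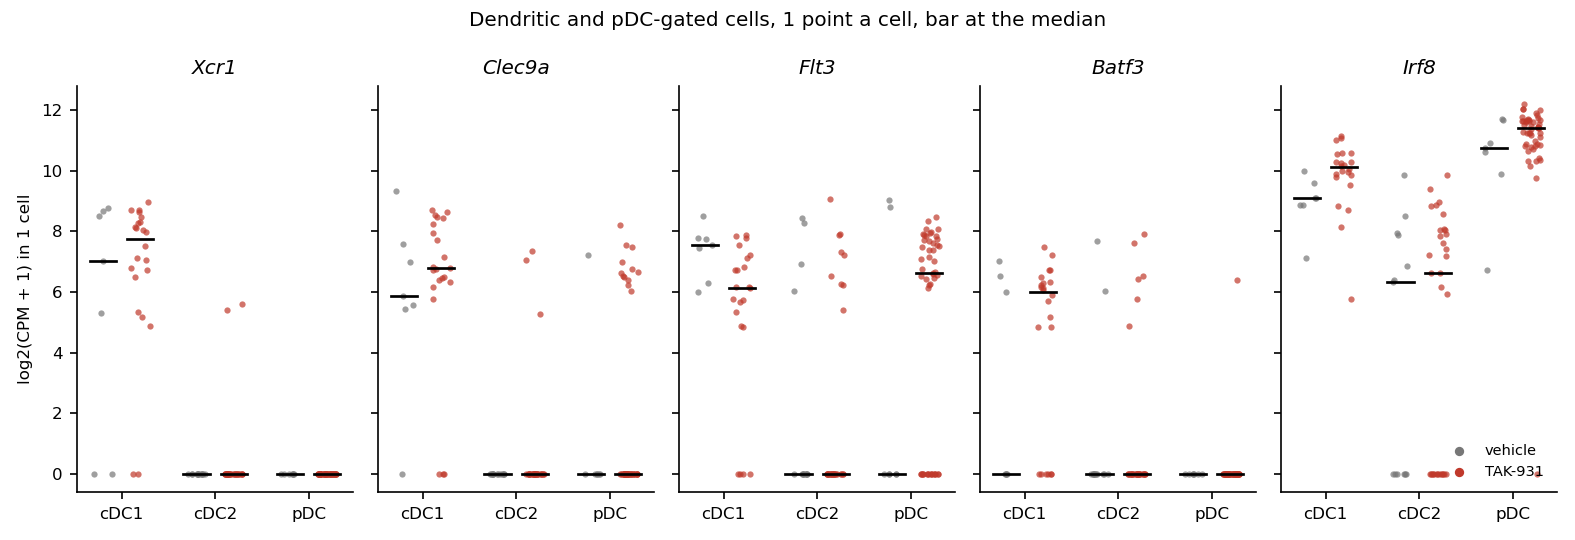
Level of 5 members in each cDC1, cDC2 and pDC, as log2(CPM + 1), with vehicle cells grey and TAK-931 cells red; points are cells and bars medians. Xcr1 is high in cDC1 and was not found in pDC, Flt3 is found in all 3 types, and Irf8 is highest in pDC and cDC1.

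The cytokine receptor gene Flt3 was found in every dendritic type and, at a low level, in the tumour cells. It stood at 170 CPM (105 to 259, 7 of 7 cells) and 88.5 CPM (66.3 to 116, 18 of 22 cells) in cDC1, at 61.2 CPM (4 of 13 cells) and 37.9 CPM (9 of 32 cells) in cDC2 and at 165 CPM (71.1 to 324) and 119 CPM (91.9 to 152) in pDC, vehicle first. The vehicle cDC1 held 2, 5, 4, 3, 1, 4 and 2 Flt3 UMIs and the TAK-931 cDC1 between 0 and 8 with a median of 2. Mature dendritic cells were at 57.7 CPM (11.9 to 169, 3 UMIs) and 112 CPM (51.0 to 212, 9 UMIs), with overlapping intervals. The level was lower in the TAK-931 library in cDC1, cDC2 and pDC and higher in mature cells, with overlapping intervals in cDC1 and pDC and a ratio interval from -1.87 to 0.61 in cDC2. Over dendritic cells the ratio was -0.62 on the log2 scale with an interval from -1.21 to 0.01. It was -0.98 (-1.48 to -0.45) with cells typed by clusters, and with barcodes of over 1000 genes kept the interval reached from -1.18 to -0.005. NK cells of both libraries and endothelial cells of both libraries held no Flt3 UMI, which in endothelial cells allows up to 2.04 and 0.884 CPM. J558 cells stood at 8.30 CPM (7.81 to 8.80) in the vehicle library, with a UMI in 822 of 2980 cells (27.6%) at a median depth of 42491 UMIs. This was 1101 UMIs where the free RNA estimate was 79.1, and above the limit of the vehicle endothelial cells, of which 0 of 79 had a UMI at a median depth of 16585 UMIs. Thinned to 4000 UMIs, 2.68% of vehicle and 0.980% of TAK-931 J558 cells had a Flt3 UMI. In TAK-931 J558 cells the level was 5.99 CPM (4.37 to 8.02), a log2 ratio of -0.47 (-0.93 to -0.04). The largest cluster of vehicle J558 cells held 1148 of them and 9 TAK-931 cells, and the one with most TAK-931 J558 cells held 27 of them beside 374 vehicle cells. Flt3 over all kept cells was at 8.20 and 4.36 CPM (-0.91, -1.10 to -0.73). Over these sums it was the single member not at least 2-fold higher in the TAK-931 library, and 95.2% of its vehicle UMIs lay in J558 cells against 14.9% of its TAK-931 UMIs.

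Batf3 was not restricted to dendritic cells. It stood at 40.4 CPM (13.1 to 94.2) and 58.4 CPM (40.7 to 81.2) in cDC1 and at 20.4 CPM (4.21 to 59.6) and 36.2 CPM (22.4 to 55.3) in cDC2, while in TAK-931 pDC 1 of 49 cells had a UMI. Mature dendritic cells held 12 UMIs in 4 vehicle cells and 7 in 6 TAK-931 cells. Over dendritic cells the levels were 61.9 CPM (37.8 to 95.6) with 20 UMIs and, with 63 UMIs, between 38.4 and 64.0 CPM, with a log2 ratio of -0.31 and an interval from -1.05 to 0.50. Without the cell with the most Batf3 UMIs in each sum the ratio was 0.14, and with 1 more marker required in every gate it was -0.83 (-1.60 to -0.007). Monocyte/macrophage cells stood at 19.9 CPM (14.9 to 26.1, 38 of 211 cells) and 26.4 CPM (24.7 to 28.3, 504 of 1962 cells), a log2 ratio of 0.41 with an interval from 0.005 to 0.83. In Leiden clusters, however, the libraries' monocyte/macrophage cells lay mainly apart, with 167 vehicle and 7 TAK-931 cells in one cluster and 44 and 1955 in all others. Within the 2 clusters that held at least 10 such cells in both libraries, the Batf3 ratio was -0.74 (-1.39 to -0.02) and 0.09 (-1.79 to 3.15), so the higher level over all such cells was not found within them. All monocyte/macrophage cells, in any cluster, held 72.5% of the TAK-931 library's 1188 Batf3 UMIs. Their 861 UMIs compare with 30.6 from the free RNA estimate. Endothelial cells went the other way, from 23.1 CPM (16.0 to 32.3, 22 of 79 cells) to 9.72 CPM (6.69 to 13.7, 21 of 185 cells), a log2 ratio of -1.25 (-1.99 to -0.52). Stromal cells, fibroblasts and mural cells together, were at 16.4 and 14.2 CPM, and TAK-931 CD8 T cells at 5.76 CPM (4.33 to 7.52). Batf3 over all kept cells was at 1.13 and 17.1 CPM (3.92, 3.68 to 4.16). J558 cells of the vehicle library were at 0.0527 CPM, with 7 UMIs in 2980 cells. In Leiden clusters the vehicle endothelial cells lay mainly apart from the TAK-931 ones. One cluster held 75 vehicle and 1 TAK-931 endothelial cells, and another held 4 and 182. The part of this in the difference was not tested.

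Irf8 was the member that stood higher in the TAK-931 library, with its ratio interval above 0, in each single cell type with at least 10 cells in both libraries apart from cDC2. In J558 cells this did not hold once free RNA was subtracted. NK cells were at 1087 CPM (916 to 1281) and 1511 CPM, with a UMI in 10 of 10 and 77 of 77 cells, a log2 ratio of 0.47 (0.23 to 0.73). The lowest, median and highest NK cell was at 759, 1239 and 1947 CPM in the vehicle library and 558.3, 1518 and 4655 CPM in the TAK-931 library, so the cells overlapped. In these NK cells Lyz2 went from 0 to 95.2 CPM, Apoe from 0 to 189 CPM and Fcer1g from 487 to 725 CPM. The part of these genes was not tested. Dendritic cells were at 390 CPM (325 to 465) and 797 CPM (748 to 848), which gave a log2 ratio of 1.03 (0.76 to 1.31). It was 0.75 with 1 more marker required in every gate and 0.73 with cells typed by clusters, below 2-fold in both. The macrophage gene Lyz2, not a gate marker, moved with it, from 207 to 1833 CPM in dendritic cells and from 331 to 799 CPM in cDC1, and its part in the difference was not tested. Among them cDC1 were at 549 CPM (426 to 696) and 1185 CPM, with 12, 18, 3, 8, 16, 6 and 5 UMIs in the vehicle cells and 1 to 86 with a median of 29 in the TAK-931 cells. The cDC2 were at 163 and 176 CPM, with a ratio interval from -0.54 to 0.81. Mature dendritic cells were at 653 CPM (453 to 913) in 4 cells and 2380 CPM (2056 to 2742) in 6 cells, the latter above TAK-931 NK cells with intervals apart. The pDC were at 1790 CPM (1434 to 2208) in 7 cells and 2560 CPM in 49 cells. Monocyte/macrophage cells were at 243 CPM (224 to 262) and 423 CPM (416 to 430), which gave a ratio of 0.80 (0.69 to 0.92). As given for Batf3, most of these cells lay in different clusters in the libraries, and within the same 2 clusters the Irf8 ratio was 0.91 (0.48 to 1.37) and 0.42 (-0.01 to 0.90).

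In T, endothelial, stromal and tumour cells Irf8 stood at lower levels than in monocyte/macrophage cells and its ratios as counted were larger. All T cells stood at 40.3 CPM (17.4 to 79.4, 8 UMIs in 12 cells) and 276 CPM (267 to 286), and the log2 ratio was 2.78 (1.80 to 3.99). In these T cells Lyz2 went from 5.04 to 97.6 CPM, Apoe from 0 to 148 CPM and Fcer1g from 0 to 61.0 CPM, and with free RNA subtracted the Irf8 ratio was 2.77. In T barcodes with between 500 and 2000 genes Irf8 was at 17.5 CPM (2.11 to 63.1) and 29.2 CPM (20.6 to 40.3), with overlapping intervals. The part of the macrophage genes was not tested. Within the TAK-931 library Irf8 was at 337 CPM in CD8 T cells (278 of 488 cells) and at 32.1 CPM (23.9 to 42.0, 22 of 100 cells) in CD4 T cells, at median depths of 14585 and 12667 UMIs. Per CD8 T cell the highest count was 88 UMIs, and after thinning 187 of 488 cells (38.3%) still had a UMI against 7 of 100 CD4 T cells. Endothelial cells were at 47.7 and 131 CPM (1.46, 1.10 to 1.85), and stromal cells at 7.71 and 46.6 CPM (2.60, 1.56 to 3.85). Macrophage genes moved with Irf8 in these cells, apart from Fcer1g in stromal cells. In endothelial cells Lyz2 went from 3.40 to 245 CPM, Apoe from 72.2 to 231 CPM and Fcer1g from 9.53 to 190 CPM, and in stromal cells Lyz2 went from 79.1 to 182 CPM, Apoe from 96.4 to 493 CPM and Fcer1g from 76.2 to 84.6 CPM. Their part was not tested, and the endothelial cells of the libraries lay mainly in different clusters, as given for Batf3. J558 cells were at 3.71 and 12.5 CPM (1.75, 1.42 to 2.07), where the free RNA estimates were 130 of 493 vehicle UMIs and 72.6 of 94 TAK-931 UMIs. With free RNA subtracted the ratio was -0.17, so the direction in J558 cells rests on it. For endothelial and stromal cells the estimate in the TAK-931 library was 47.7 of 446 and 28.04 of 92 UMIs. Summed over T and NK cells together Irf8 was at 457.5 and 384.6 CPM, and NK cells were 10 of 22 such cells in the vehicle library and 77 of 724 in the TAK-931 library. Irf8 over all kept cells stood at 11.7 and 366 CPM (4.97, 4.90 to 5.04), and of the 354 CPM difference 244 CPM went with the changed mix of cell types.

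**Figure D4:**
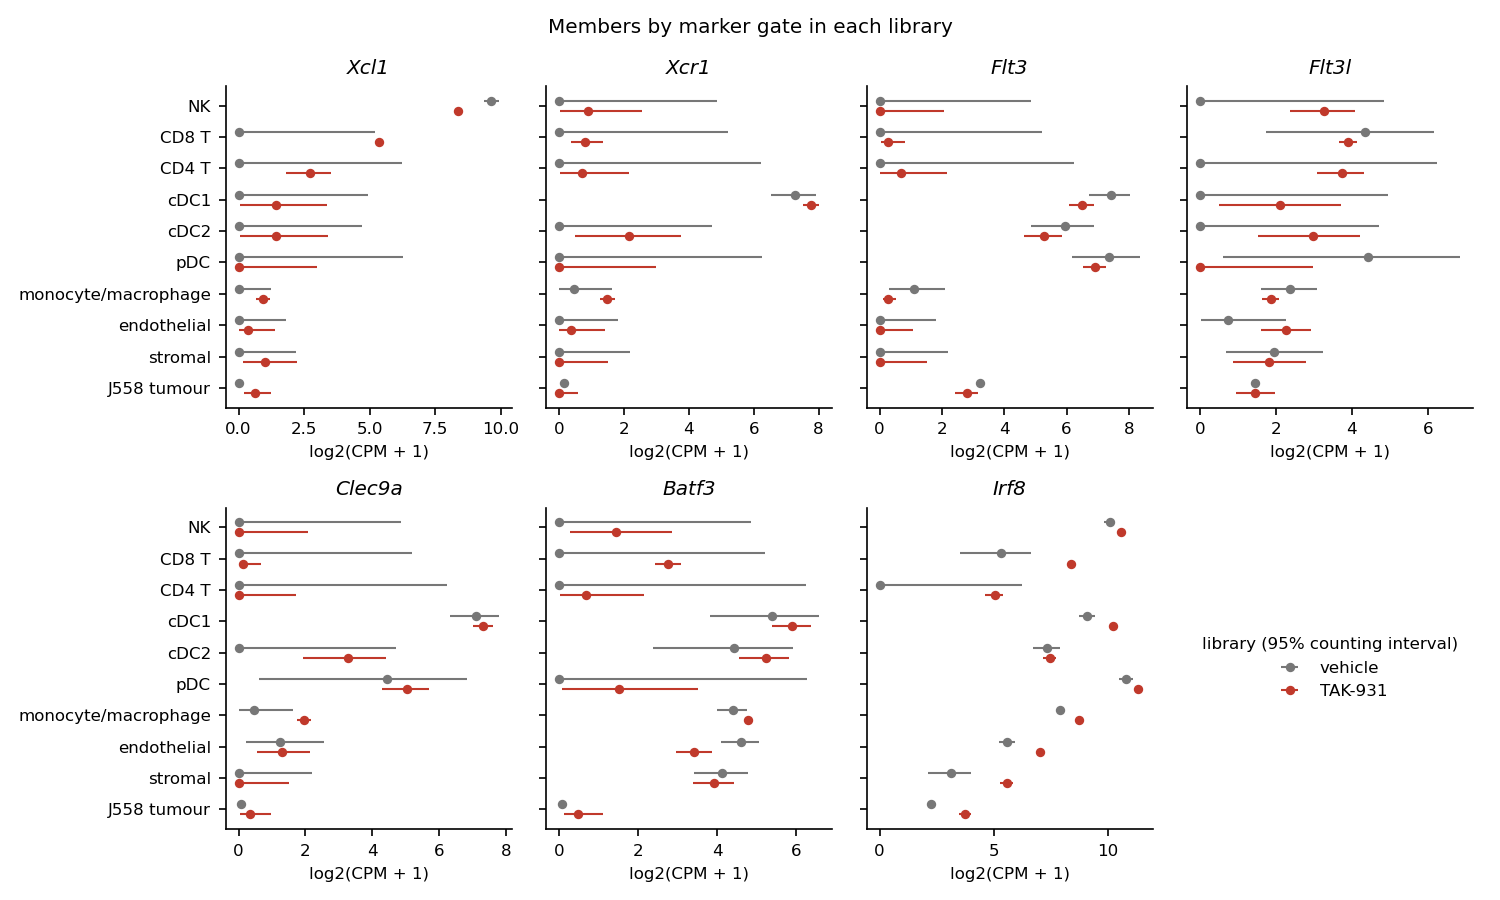
Level of each member by cell type as log2(CPM + 1) of the summed UMIs, with vehicle grey, TAK-931 red and bars the exact 95% counting interval. Among the types drawn, Xcl1 peaks in NK cells, Xcr1 and Clec9a in cDC1, and Flt3 in cDC1, cDC2 and pDC. Irf8 peaks in pDC, followed by NK cells in both libraries. Flt3l peaks in T cells in the TAK-931 library, while in the vehicle library it rests on 1 UMI in pDC and 2 in CD8 T cells. Mature dendritic cells are not drawn.

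Most of the whole-library differences went with the mix of cell types. Over all kept cells 6 of 7 members were at least 2-fold higher in the TAK-931 library and none was 2-fold lower, beside 37.3% of 18139 genes with at least 10 UMIs higher and 19% lower. Within dendritic cells 1 of 5 tested members, Irf8, was at least 2-fold higher and none lower, beside 15.5% and 6.73% of 7742 genes. Within monocyte/macrophage cells Xcl1, Xcr1 and Clec9a counted as at least 2-fold higher and Flt3 as lower among 7 tested, beside 13.7% and 9.1% of 13532 genes, but these vehicle values rest on 0 to 3 UMIs. With a 0 taken as 3 counts Xcl1 no longer counted as higher there. The changed mix of cell types went with 89.0% of the difference in Xcl1, 71.2% in Xcr1, 64.9% in Clec9a and 87.7% in Batf3. Among immune cells cDC1 were 2.65% (1.07 to 5.39%) in the vehicle library and 0.784% (0.492 to 1.18%) in the TAK-931 library, and the intervals overlapped. All dendritic cells were 9.09% (5.91 to 13.2%) and 2.14% (1.64 to 2.74%) of immune cells, with intervals apart. Typed by clusters, they were 12.9% (9.20 to 17.4%) and 5.07% (4.31 to 5.91%). A lower share among immune cells goes here with a higher number of cDC1 among kept cells, 22 of 3488 against 7 of 3441. The dissociated tumour, the number of cells loaded and the gates set these shares, and their part was not tested.

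**Figure D5:**
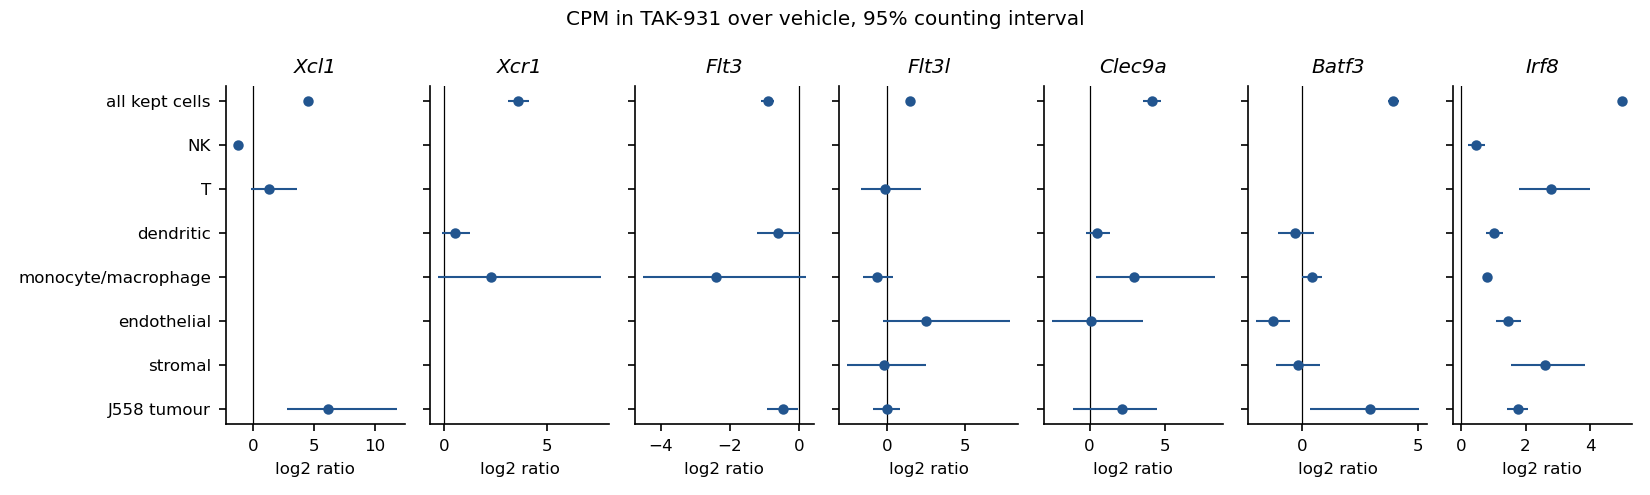
Log2 ratio of CPM in the TAK-931 library over the vehicle library for each member in all kept cells and in 7 classes of cells with at least 10 cells in each library, with exact 95% counting intervals; types with no UMI in 1 library are left blank. Flt3 alone lies below 0 over all cells, Xcl1 lies below 0 in NK cells, and Irf8 as counted, with no free RNA subtracted, lies above 0 in every type drawn.

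The number of receiver genes found per cell was read by type, and cDC1 were also the deepest of the 3 types in both libraries. Of the 5 receiver genes Xcr1, Clec9a, Flt3, Batf3 and Irf8, at least 3 were found in 7 of 7 vehicle cDC1 and in 21 of 22 TAK-931 cDC1, and all 5 in 2 and 13 of them. No vehicle cDC2 and 1 of 32 TAK-931 cDC2 had 3 or more. In pDC 1 of 7 and 11 of 49 cells had 3 or more, and none had all 5. Thinned to 4000 UMIs in 50 draws, a median of 3 of 7 and 10 of 22 cDC1 had 3 or more, against 0 of 13 and 0 of 32 cDC2 and 1 of 7 and 3 of 49 pDC. Within TAK-931 cDC1, 18 of the 20 cells with Xcr1 also had Clec9a, 17 also had Flt3 and 16 also had Batf3.

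The wider dendritic lists were read in dendritic cells. Of 3 monocyte/macrophage genes not used in the gates, Lyz2 moved with them, from 207 to 1833 CPM over dendritic cells and from 156 to 3148 CPM in cDC2, while Apoe was at 127 and 161 CPM and Fcer1g at 901 and 852 CPM over dendritic cells. Their part in the list values was not tested. Of 17 tested genes of FLT3 signalling and dendritic cell development, 6 were at least 2-fold higher in the TAK-931 library and none was 2-fold lower. The 6 are 35.3% of the list, beside the 15.5% of all genes given above. With a 0 taken as 3 counts, the share was 29.4% in dendritic cells, beside 12.8% of all genes. By that rule it was 22.2% beside 8.03% in monocyte/macrophage cells, so the higher share was not particular to dendritic cells. In T and NK cells it lay nearer that of all genes, with 11.1% beside 8.15% and 21.4% beside 17.1%. The 6 in dendritic cells were Kit, Kitl, Id2, Notch2, Klf4 and Zbtb46. Kitl rested on 0 and 10 UMIs and was not counted with a 0 taken as 3 counts. Zbtb46, a gate marker, rested on 3 and 55 UMIs. Id2, which cDC1 need to develop, was at 598 and 1316 CPM (log2 ratio 1.14, 0.92 to 1.36). Klf4, a factor of cDC2 and monocytes, was at 99.1 and 198 CPM (1.00, 0.47 to 1.58). Stat3, which carries the FLT3 signal, was at 149 and 244 CPM (0.71, 0.27 to 1.18), Csf2rb, a subunit of the GM-CSF receptor, at 437 and 587 CPM (0.43, 0.17 to 0.70), and Spi1, the factor PU.1, at 303 and 310 CPM (0.03, -0.29 to 0.37). Of 14 tested genes of cross-presentation and cDC1 function, 2 were at least 2-fold higher, Tap1 and Tlr3, and none lower. That is 14.3% of the list, near the 15.5% of all genes. Tap1, a subunit of the peptide transporter, was at 127 and 286 CPM (1.17, 0.70 to 1.67), and Tlr3, a gate marker, rested on 3 and 24 UMIs. Il12b, a subunit of interleukin-12, was at 319 and 515 CPM (0.69, 0.39 to 1.01). For Cd86, Cxcl9 and Ccr7 the ratios were 0.25 (-0.15 to 0.66), -0.01 (-0.28 to 0.27) and -0.05 (-0.33 to 0.24).

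The genes most like each member in pattern were found by Pearson's r of log2(CPM + 1) over 15 sums of a cell type in a library, each of at least 20 cells, among 13179 genes. Most like Xcl1 were Klre1 (r = 0.97), Samd3 (0.96) and Prf1 (0.95), and most like Xcr1 were Gpr141b (0.98), Cstdc4 (0.96) and Gcsam (0.95). For Flt3 they were Kmo (0.95), Zfp106 (0.94) and Bloc1s2 (0.93), for Flt3l Fancf, Scyl2 and Abcb9 (0.88 to 0.89) and for Clec9a Havcr1, Sept3 and Cldn1 (0.91 to 0.92). Batf3 was most like Samd4b, Ccdc28b and Specc1 (0.91), and Irf8 most like Dennd4b, Adgre5 and Tmem229b (0.88 to 0.90). Klre1, Gcsam and Kmo are gate markers, and the points share libraries and depth. No NK, T, cDC1, cDC2 or pDC type of the vehicle library had enough cells to enter. For Xcr1 the TAK-931 cDC1 sum was at 217 CPM and the next highest sum at 3.45 CPM, so its r rests mainly on 1 point. Between members r was highest for Flt3 with Clec9a (0.82), Xcr1 with Clec9a (0.75) and Xcl1 with Flt3l (0.74), and it was 0.08 for the ligand Xcl1 with its receptor Xcr1.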

How the data were processed

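Processed 10x Genomics 3′ v3.1 libraries of 2 groups, vehicle and TAK-931 at day 6, with 1 library per group, were analysed. The deposited matrices hold raw UMI counts per gene and barcode that the authors made with Cell Ranger 6.0.0 per the submitters' processing notes. The notes name the mouse build mm10 while the study's methods name a human build, and the gene identifiers in the files are mouse. No other per-sample columns were found (0). Doublet removal before deposit is not given in the sources used here, and no doublet caller was run. Cells passing the gates of more than 1 lineage were kept apart as mixed.

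Cells needed more than 2000 detected genes and a mitochondrial share below 15%, which left medians of 40504 and 15097 UMIs per cell. Each cell was assigned by the number of markers detected and their UMIs per 10000, and no member was a marker. Members, gene lists and tests were chosen with earlier results of these data known. Gate limits were set after the markers' distributions had been seen, and the CD8 T state genes, the TTCNNNGAA motif and the results in all T, J558, endothelial and monocyte/macrophage cells were added after values had been seen. UMIs were summed per type and library. Levels have exact Poisson, shares exact Clopper-Pearson and log2 ratios exact conditional binomial 95% intervals, and the level of a gene at 0 was given a limit of 3 counts. Ratios needed at least 10 cells in each library. With 1 library per group no test between conditions could be made, and the intervals compare these libraries. Free RNA was estimated from the UMIs of other types' markers in each type. The share of a difference that goes with the mix of cell types was taken by holding the levels within types at the mean of both libraries. For shares of cells with a UMI, each cell was thinned to 4000 UMIs. A gene counted as called past 2-fold if it had at least 10 UMIs in both sums together, with a 0 in either sum taken as 0.5 counts or, as an alternative added later, as 3 counts. The text names all members, the 5 genes of each list with the most UMIs in the cells described, list genes past 2-fold, and the 3 genes most like each member. The interval code was tested on simulated data. Filters, gates, thinning, scaling and cell typing by Leiden clusters were varied. Python 3.11.15, numpy 2.4.6, scipy 1.17.1, pandas 2.3.3, scikit-learn 1.9.0, igraph 0.11.9 and matplotlib 3.10.9 were used.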

Additional observations from a re-analysis of the deposited data

Results flagged for a closer look

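For Xcl1 and Batf3 the ratio of the TAK-931 over the vehicle library pointed one way in some cell types and the other way in others, with counting intervals that did not reach 0. The difference between the types was not tested, since each group has 1 library. Xcl1 had a log2 ratio of -1.29 in NK cells and 6.14 in J558 tumour cells, where the latter rests on 1 and 4 UMIs and the free RNA estimate for the TAK-931 cells was 3.97 UMIs. Batf3 had a log2 ratio of -1.25 in endothelial cells, 0.41 in monocyte/macrophage cells and 2.92 in J558 tumour cells, where the last rests on 7 and 3 UMIs and the free RNA estimates were 11.5 and 3.47 UMIs. With under 10% mitochondrial UMIs allowed, the interval in monocyte/macrophage cells reached from -0.05 to 0.78, and within 1 cluster of them the ratio was -0.74 (-1.39 to -0.02).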

How the results depend on the processing

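Of 302 alternative values over 39 results, 263 lay inside the counting interval of the reported value or, for counts of genes, within 1.5 times of it, 37 lay outside and 2, whose reported intervals did not reach 0, changed sign: Irf8 in J558 cells was -0.17 with free RNA subtracted, and Batf3 in monocyte/macrophage cells was -0.74 within 1 cluster. Irf8 in monocyte/macrophage cells was 0.42 within another. The sign also changed where the reported interval reached 0, for Xcr1 in dendritic cells (-0.12 and -0.03) and Batf3 in dendritic cells (0.14 without the cell with the most UMIs). Taking the mean of each cell's CPM gave log2 ratios over all kept cells of 3.02 for Xcl1, 2.15 for Xcr1, 2.95 for Clec9a, 2.77 for Batf3 and 3.84 for Irf8, and -0.88 for Xcl1 in NK cells. Keeping barcodes with over 1000 or over 500 genes gave 4.80 and 4.78 for Irf8 over all cells, -0.94 and -0.89 for Xcl1 in NK cells, 36.6% and 36.5% for the share of TAK-931 Xcl1 UMIs in NK cells and, with over 500 genes, 89.0% for the vehicle share. Centring on the median gene gave 4.81 for Irf8 over all cells and 0.76 in NK cells. The median gene with ample counts lay at 0.16 over all cells, -0.28 in NK cells, -0.15 in T cells, -0.10 in dendritic cells, -0.11 in monocyte/macrophage cells and -0.27 in endothelial cells. With 1 more marker in every gate, Xcr1 in dendritic cells was -0.12, Irf8 in dendritic cells 0.75, the vehicle share of Xcl1 UMIs in NK cells 65.1% and the TAK-931 dendritic share of immune cells 1.597%. With cells typed by clusters, Irf8 in dendritic cells was 0.73 and that dendritic share 5.07%. Flt3 over all cells was -1.17 without mixed cells, an alternative chosen after seeing the data, as was leaving out the cell with the most UMIs.

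Without thinning, Xcl1 was found in 100% and 45.5% of NK cells, Xcr1 in 90.9% of TAK-931 cDC1, Clec9a in 85.7% and 86.4% of cDC1 and Flt3 in 27.6% and 27.5% of J558 cells. At 2000 UMIs Xcr1 was found in 14.3% and 22.7% of cDC1 and Flt3 in 1.41% of vehicle J558 cells. Of the cross-presentation genes, 1 was past 2-fold in dendritic cells at a minimum of 50 UMIs. With a count of 0 taken as 3 counts, 17.1% of all genes were higher in NK cells, 8.15% in T cells, 8.03% in monocyte/macrophage cells and 12.8% in dendritic cells, and 9.12% were lower in T cells. No paired analysis was possible because each group has 1 library. Xcl1 and Flt3l in CD8 T cells gave no ratio, with 7 vehicle cells, nor did Flt3l in NK cells, with 0 vehicle UMIs. The few vehicle NK, T and dendritic cells limit each comparison, and the intervals leave out differences between cells and between mice.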

Other observations

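Barcodes with between 500 and 2000 genes, left out above, held further NK cells, 21 in the vehicle library and 100 in the TAK-931 library, at median depths of 2664 and 4151 UMIs. In them Xcl1 stood at 341 CPM (221 to 504, 25 UMIs in 4 barcodes) and 390 CPM (332 to 455, 162 UMIs in 27 barcodes), and the intervals overlapped. Irf8 stood at 1516 and 1946 CPM in the same barcodes. The CD8 T barcodes of this range in the TAK-931 library, 149 in number, were at 36.8 CPM (23.8 to 54.3) for Irf8, against 337 CPM in the deeper CD8 T cells. The cause of this difference was not tested.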
